A study of Drosophila melanogaster with 2 samples.

Results

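The cytoplasmic ribosomal protein genes of Drosophila melanogaster were examined for peaks of the transcription factor Lim3 at their promoters. The genes were taken by symbol from the Ensembl BDGP6 annotation, as protein-coding genes named RpL or RpS followed by a digit, together with RpLP0, RpLP1, RpLP2 and sta. This gave 92 genes of 13968 protein-coding genes on the 7 chromosome arms, of which 50 are named for the large 60S subunit, 39 for the small 40S subunit (sta included) and 3 for the stalk. A peak counted for a gene where its summit, the position of highest signal, lay within 500 bp of the start of any transcript of that gene.

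Chromatin came from whole embryos of 8 to 24 h that carried Lim3 fused to eGFP, and it was sheared by sonication and precipitated with an antibody against GFP. The age is that of the source label, since a separate age label gives an implausible value for an embryo and was not used. Both libraries, biological replicates 1 and 2, belong to the same strain and form 1 group, so the design holds no comparison between conditions and p-values were not computed. The labels name whole organisms and no cell type, so each peak is an average over all cells of the embryos, and a site used in few cells cannot be told apart from weak binding in many. No control library was analysed here.

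Ribosomal proteins assemble with ribosomal RNA into the subunits that translate messenger RNA in the cytoplasm. Their genes are transcribed strongly in nearly all cells, and in flies many of them start within a pyrimidine-rich initiator, the TCT element, in place of the usual initiator. Lim3 is a LIM-homeodomain factor known for its part in the identity of motor neurons and other neurons, and homeodomains recognise short words with a TAAT core.

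Of the 92 ribosomal protein genes, 16 (17.4%) had a promoter peak in the larger thresholded list, against a background of 5.84% of all protein-coding genes. That list holds 1500 peaks made from both libraries together. They met a limit of 0.01 on the irreproducible discovery rate (IDR), the estimated share of peaks that do not repeat. Meeting this limit did not require a peak in each replicate, since RpS20, RpS4 and RpS25 met it with no overlapping ranked peak in replicate 1. The share of listed genes was lower in each of the other thresholded lists, which were made separately and hold some sites that the larger list lacks. The conservative list of 966 peaks held 10 of the genes (10.9%, against 4.42%), the list of replicate 1 held 7 (7.61%, against 3.91%) and the list of replicate 2 held 5 (5.43%, against 3.74%). Promoter peaks overlapped by a listed peak of each replicate numbered 2 among the 92 genes (2.17%), which was near the background of 2.61%. Counted by listing in both replicates within 500 bp, the ribosomal protein genes therefore stood no higher than all genes. Within 200 bp the shares were 2.17% of the family and 1.73% of all genes.

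The 2 genes listed in both replicates encode proteins of the large subunit. RpL32, a gene widely used as a reference transcript in fly work, had the strongest peak of the family, with a signal of 160.2 at 3R, 30046150 to 30046479. Signal is the authors' value per peak, whose scale the labels and headers do not state, and places below are ranks by signal within 1 list, 1 being the highest. RpL32 took place 277 of 142438 in the ranking of both libraries, place 359 of 104680 in replicate 1 and place 243 of 113860 in replicate 2. RpL23A, which encodes a protein near the exit tunnel for the new peptide, had a signal of 111.0 at 3L, 1668560 to 1668889, with place 546 in both libraries, place 800 in replicate 1 and place 635 in replicate 2. For both genes the replicates thus placed the site within the highest 1000 peaks.

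The other listed genes of the large subunit and the stalk were RpL34b, RpL19, RpL14, RpL41 and RpLP0. RpL34b, one copy of a duplicated gene, had a signal of 104.1 at 3R, 9401152 to 9401481, and was listed in replicate 1 (place 493) but not in replicate 2 (place 1297). RpL19 on 2R had a signal of 93.02 and was in neither replicate's list, at places 923 and 1164. RpL41, the smallest ribosomal protein, had a signal of 78.92 on 2R and was listed in replicate 1 alone, with place 863 there and place 2889 in replicate 2. The summit at RpL41 also lies within the annotated span of NaCP60E, a sodium channel gene on the other strand. A transcript of NaCP60E starts inside that span, 182 bp from the start of RpL41. RpL14, a gene known from Minute mutants with delayed growth and small bristles, had a signal of 81.36 at 3L, 8600800 to 8601129, and stood at places 2920 and 1105, in neither replicate's list. In the stalk that recruits the translation GTPases, RpLP0 had a signal of 64.39 at 3L, 22075912 to 22076241, with places 1922 and 4342 and in neither list. The large-subunit and stalk sites below RpL23A thus rested on the combined libraries or on replicate 1.

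Among the small-subunit genes 9 of 39 were in the larger list (23.1%), against 6 of 50 large-subunit genes (12%) and 1 of 3 stalk genes. This order was not seen in the replicates' own lists. The list of replicate 1 held RpS15Aa and RpS29, against RpL23, RpL23A, RpL32, RpL34b and RpL41. That of replicate 2 held RpS25 and RpS27, against RpL7, RpL23A and RpL32. RpS27, which encodes a zinc-binding protein, was the strongest of the 9, with a signal of 112.7 at 3R, 25247349 to 25247678. The summit of RpS27 fell on the annotated start. RpS27 was listed in replicate 2 at place 469 and ranked but not listed in replicate 1, at place 804. RpS29, another zinc-binding protein, had a signal of 85.18 on 3R, 9777859 to 9778188, and was listed in replicate 1 (place 1057) and not in replicate 2 (place 1640). RpS15Aa had a signal of 78.68 on X, 13337527 to 13337856, with place 578 in replicate 1 and place 13435 in replicate 2, the widest gap between replicates among the listed genes that were ranked in both. RpS21 (2L, 2855973 to 2856302, signal 75.32), RpS28b (X, 9554401 to 9554730, 73.19) and RpS16 (2R, signal 67.91) were in neither replicate's list.

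For 3 listed small-subunit genes, replicate 1 ranked no peak that overlapped the site. RpS20, a protein of the head of the 40S subunit, had a signal of 100.1 at 3R, 20821840 to 20822169, and place 517 in replicate 2. RpS4 had a signal of 91.02 at 3L, 13041522 to 13041851, and place 1845 in replicate 2. RpS25, known in yeast and mammals for its need in translation from some viral entry sites, had a signal of 71.82 at 3R, 11216193 to 11216522, and was listed in replicate 2 at place 652. None of the 3 was in the conservative list. These 3 sites thus had an overlapping ranked peak in replicate 2 only.

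**Figure D1:**
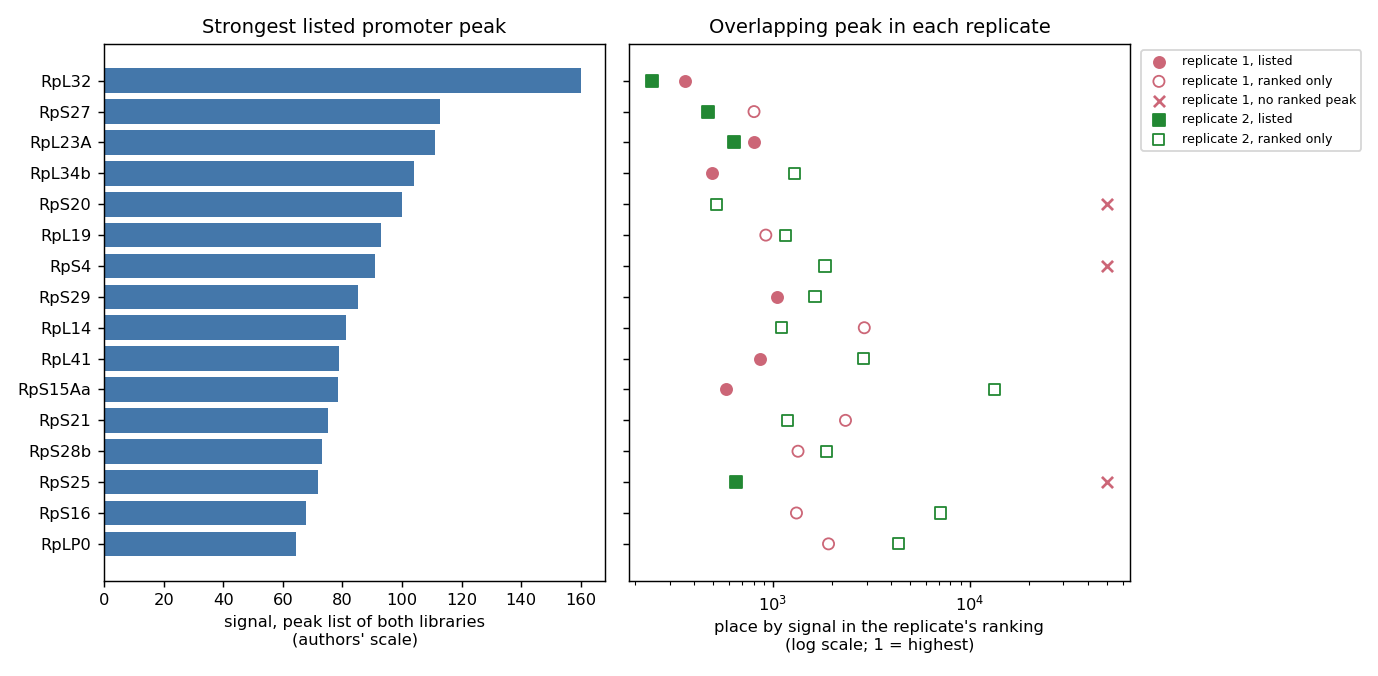
Left, the authors' signal of the strongest listed promoter peak of each of the 16 genes in the list of both libraries. Right, the place by signal of the overlapping peak in each replicate (log axis); filled marks are listed in that replicate, open marks are ranked only, and crosses mark RpS20, RpS4 and RpS25, with no overlapping ranked peak in replicate 1. RpL32 and RpL23A are filled in both replicates.

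Of the strongest listed peaks of the 16 genes, 8 were in neither replicate's list, 4 were listed only by replicate 1, 2 only by replicate 2, and 2 by both. Over all 618 promoter peaks of the larger list, 41.1% were in both lists and 23.3% in neither. The ribosomal protein sites were also weaker than most listed promoter peaks, with a median signal of 83.3 (64.39 to 160.2) against 101 over the 618 peaks. Within the 1500 peaks of the list their median place was 849.5, from 265 to 1270. RpL41 and RpS29 each had a further listed peak beside the first, with signals of 3.61 and 3.46.

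Another 3 genes were listed elsewhere than in the larger list. RpL7 was listed in replicate 2, with a signal of 66.3 at 2L, 10200877 to 10201176, and place 430, but no peak of the ranking of both libraries lay at its promoter. RpL23 was listed in replicate 1, on 2R with a signal of 47.15, and its best peak in both libraries had place 753 with an IDR of 0.395. RpS14b was in the conservative list on X, 7934695 to 7935024, with a signal of 73.21, and its peak in the ranking of both libraries missed the limit at an IDR of 0.0116. The next unlisted genes by place were RpL11 at 1187 (IDR 0.0118), RpL28 at 1522 (IDR 0.256) and RpL27A at 2330 (IDR 0.0366). RpL11 and RpS14b thus lay just outside the limit, while RpLP0 lay inside it at a lower place, 1506. Listed summits between 500 and 2000 bp from a start were found for RpL31 (1675 bp downstream), RpS19b (870 bp upstream) and RpS28b (745 bp upstream, beside its promoter peak).

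The family also stood higher than all genes in the whole ranking, where the listed genes are counted again. A ranked promoter peak among the 1500 highest signals was held by 18 of the 92 genes (19.6%), against 5.8% of all genes. Among the 5000 highest it was 32 (34.8%, against 10.7%), and among the 10000 highest 41 (44.6%, against 15.4%). Among genes without a promoter peak in the larger list, 16 of 76 ribosomal protein genes were within the 5000 highest (21.1%, against 5.17%) and 25 within the 10000 highest (32.9%, against 10.2%). A ranked peak of any signal was held by 75 (81.5%, against 73.0%). The median place of those 75 was 6587, or 4.62% from the top, against 27.2% for all genes with a ranked promoter peak. With genes that had none placed last, the medians were 13.2% and 44.1%. By subunit, the median place was 8115 for 40 large-subunit genes and 5533 for 33 small-subunit genes, with ranges that overlapped.

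The separate replicates gave different amounts of this difference. In replicate 2, 78 of the 92 genes were ranked (84.8%, against 73.2% of all genes) and their median place was 8.87% from the top, against 27.7%. In replicate 1, 50 were ranked (54.3%, as for all genes at 54.3%), and their median was 12.6% against 32.4%. With missing genes placed last, replicate 1 gave 77.4% against 80.5% and replicate 2 gave 11.2% against 46.0%. In replicate 1 the family was therefore no more often ranked, and the shift lay among the genes that had a peak. In the top 5% of both replicates there were 14 genes (15.2%, against 5.6% of all genes), and in the top 1% of both there were 3 (3.26%, against 3.04%). The replicate places of the 47 genes ranked in both had a Spearman correlation of 0.51, given as a description across genes that share libraries, against 0.424 over 6259 genes.

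**Figure D2:**
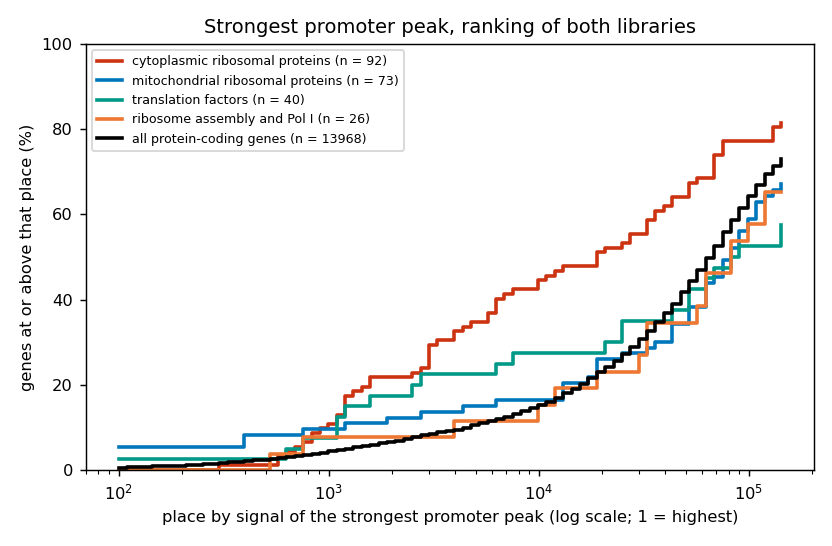
Share of genes whose strongest promoter peak lies at or above a place in the ranking of both libraries (log axis; 1 = highest), for each group of genes. The line of the ribosomal protein genes reaches 44.6% at place 10000, where that of all protein-coding genes is at 15.4%.

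**Figure D3:**
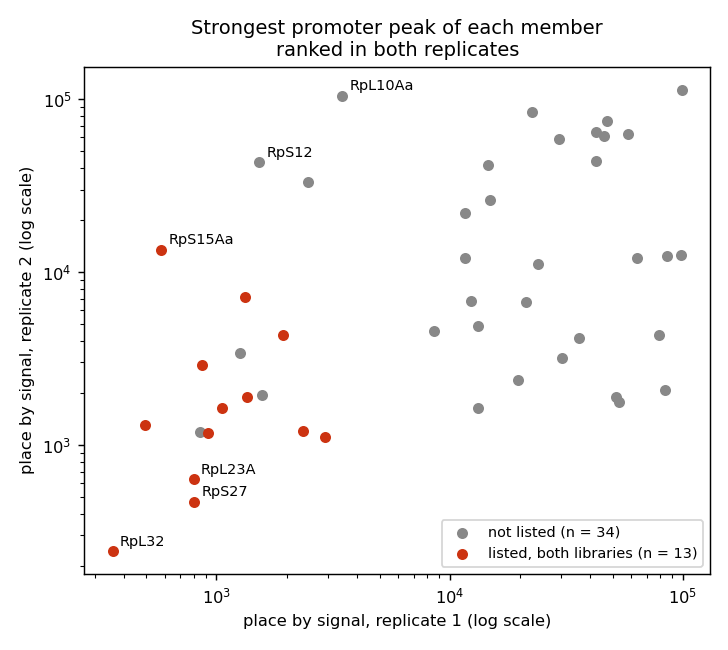
Place of the strongest promoter peak in replicate 1 and in replicate 2 (log axes) for the 47 ribosomal protein genes ranked in both, with 13 genes of the larger list in red. RpL32 has the highest signal in both replicates, and RpS15Aa and RpS12 are high in replicate 1 only.

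The low end of the family held RpS14a at place 136323, RpS10a at 128505 and RpS24 at 124825. No ranked promoter peak was present in both libraries together for 17 genes, among them RpL5, RpL9, RpL10, RpL15, RpL21, RpL26, RpL38, RpL7, RpLP2, RpS3, RpS3A, RpS9, RpS13, RpL7-like and RpL24-like. Of the 17 genes, 8 had none in any ranking. The 17 include RpS3 and RpS13, known from Minute mutants, and RpL5, a binding partner of 5S ribosomal RNA. Duplicated genes differed in place. RpL34b stood at 615 and RpL34a at 12255, RpS15Aa at 1025 and RpS15Ab at 25640, and RpS28b at 1179 against RpS28-like at 2878 and RpS28a at 62932. The neighbouring copies RpS14b (1178) and RpS14a (136323) are nearly identical, and the labels do not say how reads were shared between such copies, so their difference is uncertain.

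Summits at the ribosomal protein genes lay close to the transcript start. The median distance was 71 bp for the 75 genes with a ranked promoter peak, against 234 bp for 10193 genes, and 64.0% of them lay within 100 bp, against 20.8%. Among the 16 listed genes the median was 48.5 bp, against 161 bp for the 816 listed genes, and 14 of 16 lay within 100 bp (87.5%, against 21.1%). The exceptions were RpL32, 154 bp upstream, and RpS20, 176 bp upstream. Of the 16 summits, 13 lay upstream, those of RpS15Aa (13 bp) and RpS21 (27 bp) lay downstream, and that of RpS27 lay on the start. Against the annotation, 11 of the 16 were upstream of the gene and 5 in the 5' UTR, and none lay in coding sequence or an intron.

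More of the family than of all genes has several annotated starts (48.9% against 26.5%), which shortens the distance to the nearest. Among genes with 1 start the median was 89 bp for 39 ribosomal protein genes and 249 bp for 7139 genes. The share in the larger list also differed with the number of starts. With more than 1 start, 22.2% of the family and 10.8% of all genes were listed. With 1 start the shares were 12.8% and 4.04%. Summit positions also repeated between libraries, since the best summits of the replicates lay a median of 57 bp apart for 47 ribosomal protein genes and 125 bp apart for 6259 genes. Replicate summits within 100 bp of each other were found for 30 of the 47 genes (63.8%, against 44.7%).

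**Figure D4:**
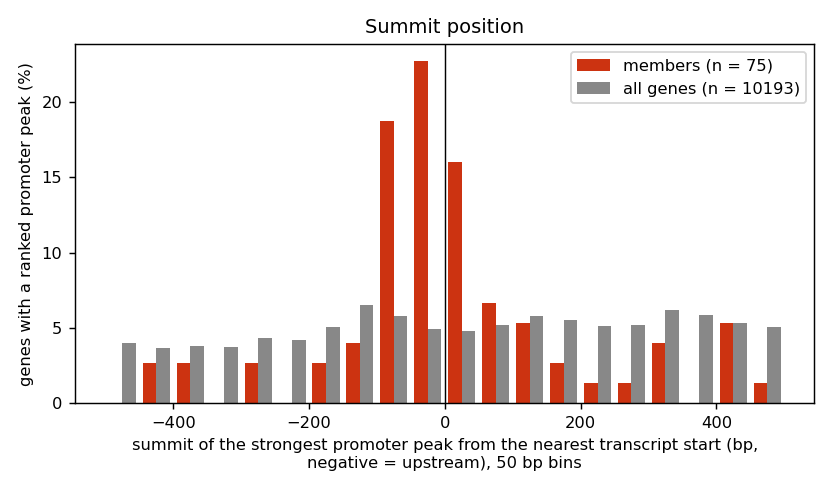
Position of the strongest promoter peak's summit relative to the nearest transcript start (bp, negative = upstream, 50 bp bins), as a share of the 75 ribosomal protein genes and of the 10193 genes with a ranked promoter peak. The ribosomal protein genes gather in the bins next to the start, with 22.7% in the 50 bp just upstream against 4.91% of all genes.

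The family differs from all genes in how promoters are arranged. A transcript of another gene on the opposite strand starts within 1000 bp upstream of 55 of the 92 genes (59.8%), against 35.2% of all genes. Any annotated start of the neighbour counted, also for NaCP60E at RpL41, where the counted start lies inside the neighbour. Of the listed genes 13 of 16 are arranged so (81.2%), against 60.5% of all listed genes. Among ribosomal protein genes with such a neighbour 23.6% were listed, and among all genes with one 10.1%. Among those without, 3 of 37 were listed (8.11%, the genes RpL23A, RpS4 and RpS29), against 3.56%. Among the 10000 highest signals the family's shares were close, at 25 of 55 with such a neighbour (45.5%) and 16 of 37 without (43.2%). The share of all genes at that depth, whatever their arrangement, was 15.4%. In such a pair a peak counts for both genes. At RpL32 the summit lay 154 bp from its own start and 155 bp from that of CG7943, and at RpS20 it was nearer to CG17271 (157 bp) than to RpS20. The assignment of these 2 peaks to a gene is therefore not settled by distance. Partners of the others include Nup37, a nuclear pore gene next to RpS27 at 144 bp, and Nelf-E, a gene of polymerase pausing next to RpL14 at 127 bp.

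The letters at the promoters were read from release 6 of the fly genome (RefSeq, the dm6 assembly). The letters TCTTT, part of the TCT element, were searched on the gene's strand within 10 bp of a start. At the gene's own most upstream start they were present for 29 of the 92 genes (31.5%), against 2.12% of all genes. At some start they were present for 51 of the 92 (55.4%), against 3.2% of all genes and 0 of 73 mitochondrial ribosomal protein genes, and the family has more starts per gene. At some start, listed and unlisted genes of the family held them at 62.5% and 53.9%. The 20 bases around the start nearest to the summit are shown for 5 listed genes that hold the letters there, in capitals, and for RpL23A and RpS27, which do not.
RpL14 start (chr3L:8600996-8601015, plus strand): aaaaaagtTCTTTccttctc
RpL32 start (chr3R:30046152-30046171, minus strand): ccaccagcttttTCTTTtcg
RpLP0 start (chr3L:22076082-22076101, plus strand): ccgccaacttcacTCTTTcc
RpS21 start (chr2L:2856101-2856120, plus strand): cagctgtcattTCTTTctct
RpS25 start (chr3R:11216278-11216297, minus strand): tttccgccctccaTCTTTct
RpL23A start (chr3L:1668645-1668664, minus strand): cccctcagttttccttttca
RpS27 start (chr3R:25247505-25247524, minus strand): agcattatttagtgcattct
Listed peaks thus occurred at starts with and without these letters. As TCTTT is only part of the TCT element, its absence does not show that the element is absent. At RpL23A, TCTTT lies on the gene's strand just past the 20 bases. The full element was not searched.

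Other words were searched on both strands of the 300 bases from 250 before to 50 after the gene's start. TATCGATA, the DNA replication-related element, was present at 30.4% of the family against 9.36% of all genes, at 37.5% of listed and 28.9% of unlisted ribosomal protein genes. GTCACACT, the core of the M1BP word, was present at 12% against 6.61%. GAGAG, of the GAGA factor, was present at 16.3% against 29.7%, and the E-box CAGCTG at 9.78% against 17.6%. For CAGCTG the listed genes of the family stood at 25%, the unlisted ones at 6.58% and all 816 listed genes at 27.2%. In 200 bp centred on the summit the family was at 12% for CAGCTG, against 11.9% of all ranked genes. Of the homeodomain words, TAATTA was present at 27.2% against 20.4%. It was held by 4 of 16 listed genes (25%), 27.6% of unlisted ones and 22.7% of all 816 listed genes. TAATTG was present at 30.4% against 25.2%, with 8 of 16 listed genes (50%), 26.3% of unlisted ones and 22.7% of all 816 listed genes. These differences depended on the window. In 200 bp centred on the gene's start, TAATTA was present at 6.52% of the family against 9.89% of all genes, which turns its direction. In 200 bp centred on the summit, TAATTA was present at 9.33% of the 75 ranked genes of the family against 9.83% of 10193 genes. Of the 16 listed genes 12.5% held TAATTA there, against 25.4% of all 816 listed genes. TAATTG was present around the summit at 20% against 13.5%, with 18.8% of listed and 20.3% of unlisted ribosomal protein genes. The higher share at listed genes was therefore not seen in the window around the summit. It was seen in 200 bp centred on the gene's start, at 37.5% of listed and 15.8% of unlisted genes of the family.

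A further 3 words were taken in an earlier analysis from the listed peaks of these data, so a higher share at listed genes follows from their choice and is given as a description. ACAGTG was present at 20.7% of the family against 13.9% of all genes, with 6 of 16 listed genes (37.5%), 17.1% of unlisted ones and 25% of all 816 listed genes. CAGTGG, which can overlap it in ACAGTGG, was present at 12% against 12.4%. ACCCCC was present at 7.61% against 4.64%, with 4 of 16 listed genes (25%), 3.95% of unlisted ones and 6.0% of all 816 listed genes. The promoters of RpL32 and RpL23A, listed in both replicates, and of RpS15Aa, listed in replicate 1, are shown to set their words against each other. Capitals mark TAATTA in RpL32, ACAGTG in RpL23A, and TAATTG, TATCGATA and CACTGT (the reverse strand of ACAGTG) in RpS15Aa.
RpL32 promoter (chr3R:30046112-30046411, minus strand): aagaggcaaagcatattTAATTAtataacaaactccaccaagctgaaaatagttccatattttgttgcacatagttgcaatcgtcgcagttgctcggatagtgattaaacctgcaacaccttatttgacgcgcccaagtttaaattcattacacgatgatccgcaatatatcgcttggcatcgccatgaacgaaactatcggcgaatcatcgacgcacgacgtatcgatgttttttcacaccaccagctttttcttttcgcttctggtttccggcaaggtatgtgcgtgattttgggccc
RpL23A promoter (chr3L:1668605-1668904, minus strand): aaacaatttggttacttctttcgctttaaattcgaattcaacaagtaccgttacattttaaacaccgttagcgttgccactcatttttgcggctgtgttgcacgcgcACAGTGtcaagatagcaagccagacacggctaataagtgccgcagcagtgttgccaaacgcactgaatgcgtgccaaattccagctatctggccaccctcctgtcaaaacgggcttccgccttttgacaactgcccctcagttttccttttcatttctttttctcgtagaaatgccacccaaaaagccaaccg
RpS15Aa promoter (chrX:13337656-13337955, minus strand): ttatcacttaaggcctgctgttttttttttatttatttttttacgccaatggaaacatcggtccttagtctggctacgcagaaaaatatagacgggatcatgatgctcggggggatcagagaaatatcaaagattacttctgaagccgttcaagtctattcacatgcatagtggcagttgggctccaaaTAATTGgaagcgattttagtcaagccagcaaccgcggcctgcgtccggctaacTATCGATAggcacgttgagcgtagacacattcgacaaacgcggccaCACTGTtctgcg
The pair listed in both replicates shares none of the marked words.

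**Figure D5:**
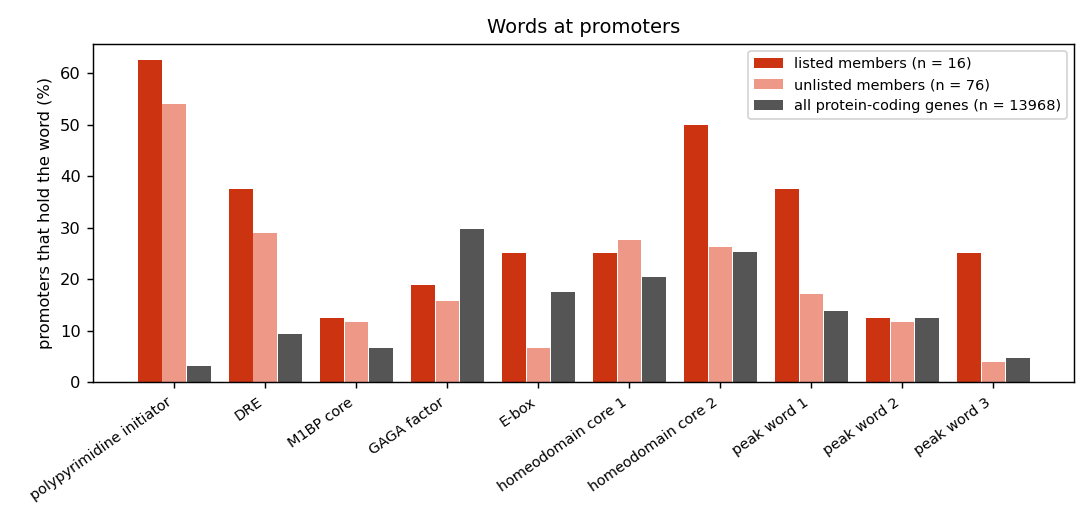
Share of promoters that hold each word, for the 16 listed and 76 unlisted ribosomal protein genes and all 13968 protein-coding genes. The bars named polypyrimidine initiator show the letters TCTTT, searched within 10 bp of any start. The other words, in the order of the text, were searched in the 300 bases around the gene's start. TCTTT stands at 62.5%, 53.9% and 3.2%.

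Genes of related function were counted in the same way. Of all protein-coding genes 5.84% were listed and 2.61% were listed in both replicates. Of 73 mitochondrial ribosomal protein genes 8 were listed (11.0%), and 5 of them were listed in both replicates (6.85%), against 2 of 92 cytoplasmic ones. Their strongest peak, at mRpL41, had a signal of 754.6 and place 4 in the larger list, far above the 160.2 of RpL32. Translation factors were listed for 6 of 40 genes (15.0%), led by eIF6, a factor that keeps the subunits apart, at 418.4. Ribosome assembly and RNA polymerase I genes were listed for 2 of 26 (7.69%), led by Ns2 at 117.0. Among the 10000 highest signals the shares were 16.4%, 27.5% and 15.4% for these groups, and 44.6% for the cytoplasmic ribosomal proteins. All protein-coding genes stood at 15.4% there, so the mitochondrial and assembly groups were near that background. The cytoplasmic family thus had the largest share of ranked promoters among these 4 groups at that depth of the ranking, while its strongest peak was weaker than those of mRpL41 and eIF6.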

How the data were processed

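Peak lists from 2 libraries were used in dm6 coordinates, per the labels. Peak signal is the authors' value; the deposited score is scaled from the IDR and capped at 1000, and −log10 of the IDR stands in the deposited rankings. As to aligner and peak caller, these were not given in the sources used here. Sequencing depth per library is unknown, so no interval for counts of reads could be given. Summits were placed against Ensembl BDGP6 release 115 starts on the 7 arms with Python 3.11.15, pandas 2.3.3 and numpy 2.4.6, and the counting steps were tested on simulated data. Peaks overlapped where they shared 1 bp. No test was made: shares are set beside those of all protein-coding genes, and members of the family are not replicates. With 1 group of 2 libraries, agreement between replicates describes these libraries only. Members and lists were chosen with earlier results of these data known. Of 68 names in the comparison lists, 2 were not matched. Named genes were every member listed in any thresholded list, the 5 best unlisted, the 3 worst ranked, those with no ranked peak, those with a listed summit 500 to 2000 bp away, the strongest of each comparison group and duplicated pairs with a listed copy. Some genes that the rule names are not reported here. Neighbouring genes and a few others were named after their values were seen.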

Additional observations from a re-analysis of the deposited data

How the results depend on the processing

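The count of 16 listed ribosomal protein genes was 15 to 17 under windows of 200 and 1000 bp, overlap in place of summit, the nearest start only, the most upstream start, all ranked peaks at the IDR limit, no -like genes, and a signal of 10 or more. In these settings the share of the family was 16.3% to 18.5%, against 3.71% to 7.13% of all genes. The count was 10 in the conservative list (10.9%, against 4.42% of all genes). It was 7 in the 50% of the list with the highest signal (7.61%, against 3.68%). With replicate 1 left out it was 5 (5.43%, against 3.74%), and with replicate 2 left out 7 (7.61%, against 3.91%). The count listed in both replicates was 2 throughout, or 2.17% of the family. Over all genes the share was 1.73% at 200 bp, 3.09% at 1000 bp and 2.6% by each replicate's own summits. The median place was 8.87% to 12.6% from the top with a replicate left out. The median distance at listed genes was 41.0 bp in the conservative list and 60 to 66.0 bp with a replicate left out, and over ranked genes it was 62.5 to 84.0 bp. Listed translation factors numbered 3 in the conservative list (7.5%) and 2 to 3 with a replicate left out (5.0% to 7.5%). Ribosome assembly genes numbered 1 in each (3.85%), near the shares of all genes in those lists. In 200 bp centred on the start, TAATTA was at 6.52% (all genes 9.89%, a turn in direction), TAATTG at 19.6% (14.8%), ACAGTG at 12% (9.74%) and CAGTGG at 6.52% (9.21%). In 200 bp centred on the summit, TATCGATA was at 17.3% (2.07%), GTCACACT at 4.0% (1.13%), GAGAG at 6.67% (21.8%), TAATTA at 9.33% (9.83%) and TAATTG at 20% (13.5%). TCTTT was at 31.5% of gene starts and 55.4% of any start. The cause of these moves was not tested. The signal, distance and group alternatives and that of any start were chosen after seeing the data. No paired analysis was possible because the 2 libraries form 1 group and no test was made. Unknown read depth limits what an absent peak shows.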
